A study of Mus musculus with 47 samples.

Results

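Ddit4l and 9 regulators of the mTOR kinase were followed in the cerebral cortex of mice with and without a Huntington's disease allele. The 10 genes were taken by name from the deposited tables, 10 of 48795 genes listed, and all 10 were among the 19174 genes that passed the filter on low counts. They are the inhibitors Ddit4l, Ddit4, Deptor and Akt1s1, the tuberous sclerosis genes Tsc1 and Tsc2 with their target Rheb, and the mTOR complex genes Mtor, Rptor and Rictor. Ddit4l was chosen by its lower level in mice with the allele, seen earlier in these same data. Its values in that contrast are therefore given as a description without a test, and the other 9 genes were taken up for their role.

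The mTOR kinase joins signals of growth factors, amino acids and energy to protein synthesis and autophagy, and in neurons it also bears on dendrite growth and synaptic plasticity. It works in a complex with Raptor, the product of Rptor, that drives translation, and in another with Rictor that acts on Akt. The small GTPase Rheb activates the Raptor complex, and the Tsc1-Tsc2 complex switches Rheb off. Ddit4 (REDD1) is a stress-induced inhibitor that works through Tsc1-Tsc2, and Ddit4l (REDD2) is its close relative. Deptor binds and inhibits mTOR in both complexes, and Akt1s1 (PRAS40) inhibits the Raptor complex.

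RNA was sequenced from the cortex of 47 mice aged 6 months, on a background labelled C57BL, with 23 females and 24 males. The 6 groups were wild type (WT), Ccdc82+/- and Ccdc82-/-, which lack 1 or both working copies of the coiled-coil gene Ccdc82, a Q140 group labelled as heterozygous knock-in, Q140 x Ccdc82+/- and Q140 x Ccdc82-/-. Q140 places an expanded CAG repeat into the mouse Huntington's disease gene Htt, where it is expressed from the gene's own promoter, and the mice of the Q140 groups carry 1 such allele. How the Ccdc82 allele was made is not stated in the labels. Each group held 8 mice, 4 of each sex, except Q140 x Ccdc82-/- with 7 mice, 3 of them female. The labels number the mice within genotype and sex but give no litter, so the p-values measure the spread between these samples.

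Library totals ran from 43554594 to 61370843 counts. Ccdc82 checked the labels: its mean level, in counts scaled to the library size (CPM), was 16.2 in WT, 10.9 in the heterozygous and 5.32 in the homozygous mice without Q140, so that reads of the gene remained in the latter. The cortical excitatory marker Slc17a7 (205 to 239.5 FPKM) was high in all 47 libraries. Otx2, a choroid plexus marker, was at 0 in 24 libraries and at most 0.0391 FPKM, and the striatal receptor gene Drd2 reached at most 0.428 FPKM. FPKM scale the counts to gene length and to the library total.

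Compared per length, Tsc2 stood highest of the 10 genes at 21.2 ± 0.746 FPKM (SD over 47 mice), followed by Ddit4 at 16.1 ± 1.95, Akt1s1 at 14.9 ± 0.555, Mtor at 14.6 ± 0.352 and Ddit4l at 14.5 ± 1.92 FPKM. Rheb followed at 10.8 ± 0.409, Tsc1 at 9.49 ± 0.348, Rictor at 7.91 ± 0.446, Rptor at 7.79 ± 0.228 and Deptor at 5.82 ± 0.459 FPKM. The middle of this order was not fixed from mouse to mouse. Ddit4 exceeded Akt1s1 in 33 of 47 mice, Akt1s1 exceeded Mtor in 32, Mtor exceeded Ddit4l in 27 and Rictor exceeded Rptor in 26. Deptor was below Rptor in 47 of 47 mice, and Tsc2 was above Ddit4 in 46. The length behind the deposited FPKM was 6018 bases for Tsc2 and 9311 for Rictor, shorter than the 9620 and 16930 bases that their GENCODE M21 exons cover, so the places of these 2 genes depend on the annotation used.

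Ddit4l and Ddit4 varied most between mice. Their coefficients of variation over the 47 mice were 13.3% and 12.1% in FPKM, against 7.89% for Deptor and 2.41% to 5.65% for the remaining 7 genes. The spread of Ddit4l includes its difference with Q140: among the 24 mice without Q140 it was 10.5%, against 13.1% for Ddit4. Ddit4l lies on chromosome 3 (137621612 to 137628333, plus strand, GRCm38) and Ddit4 on chromosome 10 (59949669 to 59951834, minus strand). Their upstream sequences are shown because these paralogs, the most variable members, did not vary together, as described further on. RefSeq (GRCm38.p6) gave a start window for 9 of the 10 genes, and the bases before the first annotated exon are printed 5′ to 3′ on the gene's strand. They cover chr3:137623422-137623671 on the plus strand for Ddit4l, where the RefSeq start lies inside the longer GENCODE gene, and chr10:59951835-59952020 on the minus strand for Ddit4. Capitals mark matches, on either strand, to 4 short motifs: the GC box GGGCGG, the box named for its letters CCAAT, the core of the hypoxia response element, with the letters ACGTG, and the nuclear receptor half-site, with the letters AGGTCA.
Ddit4l: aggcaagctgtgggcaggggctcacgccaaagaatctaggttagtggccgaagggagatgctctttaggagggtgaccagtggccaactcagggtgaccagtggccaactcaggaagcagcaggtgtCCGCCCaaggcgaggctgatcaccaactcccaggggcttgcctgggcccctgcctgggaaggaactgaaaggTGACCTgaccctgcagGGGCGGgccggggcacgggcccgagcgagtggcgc
Ddit4: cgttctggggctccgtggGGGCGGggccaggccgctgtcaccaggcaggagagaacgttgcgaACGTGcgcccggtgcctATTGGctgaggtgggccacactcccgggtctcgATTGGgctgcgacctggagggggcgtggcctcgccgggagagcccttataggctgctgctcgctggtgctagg
The Ddit4l stretch of 250 bases held 2 GC boxes and 1 nuclear receptor half-site. Of 32851 RefSeq windows, 32.7% held a GC box and 14.0% the half-site in their first 250 bases. The Ddit4 stretch of 186 bases held 1 GC box, 2 CCAAT boxes and 1 hypoxia core, which 22%, 26% and 11.8% of the windows held over the same length. The TATA box (TATAAA), the E-box (written CACGTG) and the cAMP response element (written TGACGTCA) were also searched on both strands and matched neither stretch. Over 250 bases, 12.4%, 6.02% and 1.55% of windows held them. None of the marked matches overlap, and a match of letters is a description, not a binding site.

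Ddit4l was lower in mice carrying Q140 on each of the 3 Ccdc82 backgrounds. In WT mice it ranged from 40.2 to 55.8 CPM with a median of 48.0, and in Q140 mice from 33.1 to 43.2 CPM with a median of 35.5. Of the 8 Q140 mice, 6 lay below the lowest WT mouse and 8 below the WT median, and the other 2 lay within the WT range. The log2 difference was -0.35 (SE 0.0721, 95% confidence interval -0.50 to -0.21), or -21.8%.

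The difference was smaller on the other backgrounds. Ccdc82+/- mice ranged from 38.4 to 53.1 CPM (median 43.7) and Q140 x Ccdc82+/- mice from 36.5 to 48.2 CPM (median 39.2), with a log2 difference of -0.16 (SE 0.0720). Ccdc82-/- mice ranged from 37.7 to 49.8 CPM (median 44.7) and Q140 x Ccdc82-/- mice from 31.7 to 42.3 CPM (median 38.5), with a log2 difference of -0.23 (SE 0.0749). With the plate row of the library as a term, the last value was -0.15 (SE 0.0857). The groups overlapped in both cases: 3 of 8 and 2 of 7 mice with Q140 lay below the lowest control.

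Averaged over the 3 backgrounds, Ddit4l differed by -0.25 (SE 0.0422, interval -0.33 to -0.16), or -15.9%. The 24 mice without Q140 averaged 45.7 ± 4.71 CPM (SD) and the 23 with it 38.5 ± 3.89 CPM. Below the median of the mice without Q140 lay 21 of the 23, below their lowest mouse lay 10, and 7 of the 24 mice without Q140 lay above the highest mouse with it. The averaged value was -0.22 (SE 0.0679) in females alone and -0.28 (SE 0.0480) in males alone. The difference of the averaged effect between the sexes, female minus male, was 0.06 (SE 0.0845, interval -0.11 to 0.23), given as a description without a test. Of all 19174 genes, 0.876% were called (adjusted p under 0.05) in the averaged Q140 contrast, 0.339% higher and 0.537% lower, and 0.0313%, 0.0313% and 0.0209% in the contrasts on the WT, Ccdc82+/- and Ccdc82-/- backgrounds. For Ddit4l these shares are only background, since the contrast was used to choose it.

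**Figure D1:**
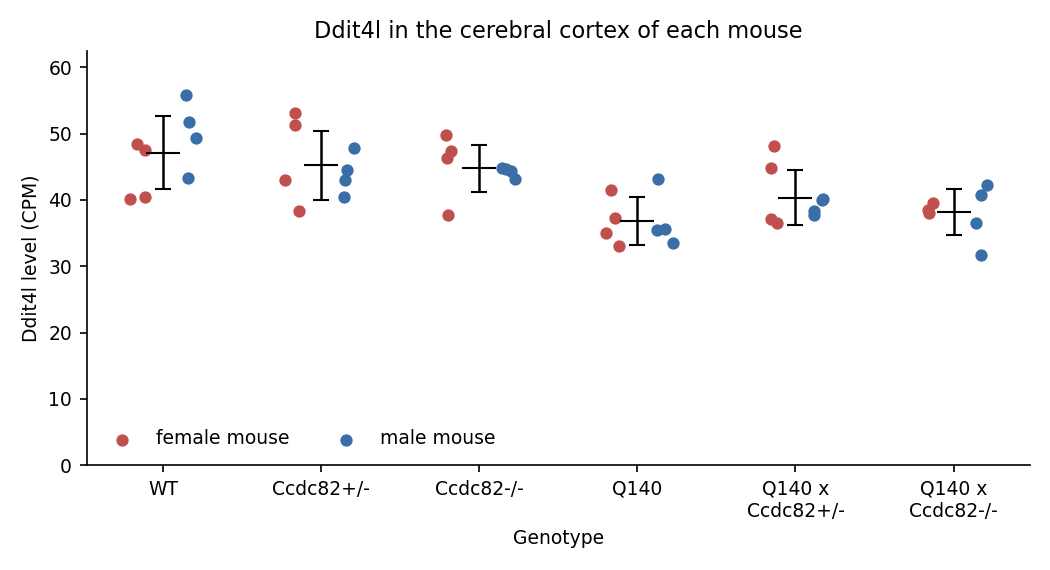
Ddit4l level in CPM (vertical axis, from 0) in each mouse of the 6 genotypes (horizontal axis), with females in red and males in blue; the horizontal bar is the group mean and the error bar is 1 SD. The 3 groups with Q140 average 36.8, 40.4 and 38.2 CPM, against 47.1, 45.2 and 44.8 CPM in the groups without it, and single mice overlap.

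Some cortical cell markers were called in the same contrast, in which 0.876% of all genes were called. Excitatory neuron genes Camk2a (log2 difference -0.08, adjusted p = 0.000378 in edgeR) and Nrgn (-0.09, adjusted p = 0.00767) fell, 2 of the 8 on their list, as did Lamp5, 1 of 10 upper layer genes. The astrocyte genes Slc1a2, Aldoc, Glul and Kcnj10 fell, 4 of 12, and Ugt8a fell, 1 of 12 oligodendrocyte genes. Enpp6 and Ctss rose, 1 gene each from the oligodendrocyte precursor (8 genes) and microglia (11) lists. The summed excitatory list ran from 1813 to 2104 FPKM (median 1941) without Q140 and from 1745 to 1976 FPKM (median 1849.9) with it. The astrocyte list ran from 1197 to 1405 FPKM (median 1286) without Q140 and from 1165 to 1348 FPKM (median 1200.4) with it. Both ranges overlapped but were shifted down with Q140, where the astrocyte median lay near the lowest mouse without it. Such sums weigh genes by their level, so the called genes Camk2a and Nrgn, or Glul, Slc1a2 and Aldoc, make up most of them. Gene by gene, the median log2 difference was -0.016 over the excitatory list and -0.046 over the astrocyte list. The sums therefore do not show a fall of the whole lists. The part of these markers in the Ddit4l difference was not tested. In whole cortex, fewer cells that express a gene and less RNA per cell cannot be told apart.

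None of the other 9 members was called in any of the 4 Q140 contrasts, by edgeR on the whole table with Benjamini-Hochberg adjustment, and none of the 9 reached an unadjusted p under 0.05 there. DESeq2 called none of them either. In edgeR 0.876% of all genes were called in the averaged contrast and at most 0.0313% on a single background. A count of 0 of 9 is near these shares, so it says nothing particular to the members. Their averaged log2 differences lay between -0.05 and 0.01, with a median of -0.01 against 0.00 for all genes tested and adjusted p between 0.828 and 0.958.

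Among the inhibitors, Ddit4, the paralog of Ddit4l, ranged from 23.0 to 34.8 CPM (median 26.8) in mice without Q140 and from 21.8 to 30.9 CPM (median 27.3) with it. The ranges overlapped, with 4 of the 23 mice with Q140 below the lowest mouse without it. Of the 24 mice without Q140, 3 lay above the highest with it. The averaged log2 difference of Ddit4 was -0.05 (interval -0.14 to 0.04, adjusted p = 0.828 in edgeR). Deptor ran from 40.2 to 58.2 CPM (median 51.7) without and from 40.7 to 61.7 CPM (median 51.3) with Q140, a log2 difference of 0.01 (interval -0.05 to 0.08). Akt1s1 ran from 42.1 to 51.1 CPM (median 46.0) and from 43.0 to 50.4 CPM (median 45.4), a difference of -0.01 (interval -0.05 to 0.02). The averaged Ddit4l value of -0.25, which was used to choose that gene, lay outside all 3 of these averaged intervals. On single backgrounds this did not hold for Ddit4. Its intervals of -0.17 to 0.14 on Ccdc82+/- and -0.27 to 0.057 on Ccdc82-/- include the Ddit4l values there, -0.16 and -0.23. On WT its interval was -0.19 to 0.13, against -0.35 for Ddit4l.

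The Tsc1-Tsc2 complex and its target were as close between groups. Tsc1 (chromosome 2, 28641228 to 28691167) ran from 104 to 118 CPM without Q140 and from 106 to 120.4 CPM with it. Tsc2 (chromosome 17, 24595816 to 24632630) ran from 116 to 142 CPM and from 121 to 135 CPM. Their averaged log2 differences were 0.01 (interval -0.02 to 0.04) and -0.01 (interval -0.04 to 0.02). Rheb (chromosome 5, 24802823 to 24842624) ends 9.92 Mb before the start of Htt on the same chromosome. It ran from 75.4 to 95.6 CPM without Q140 and from 79.2 to 88.8 CPM with it, a log2 difference of -0.01 (interval -0.04 to 0.03).

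Of the complex genes, Mtor and Rptor had the lowest coefficients of variation of the 10, 2.41% and 2.92%. Mtor (chromosome 4, 148448611 to 148557683) ran from 139 to 156 CPM without Q140 and from 140.2 to 158 CPM with it, a log2 difference of -0.01 (interval -0.03 to 0.02). Rptor (chromosome 11, 119602905 to 119899576) ran from 98.5 to 112 and from 102 to 111 CPM, a difference of 0.01 (interval -0.02 to 0.03). Rictor (chromosome 15, 6708379 to 6800401) ran from 67.7 to 81.9 and from 69.4 to 83.1 CPM, a difference of 0.01 (interval -0.02 to 0.05). The groups overlapped for each of these genes.

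**Figure D2:**
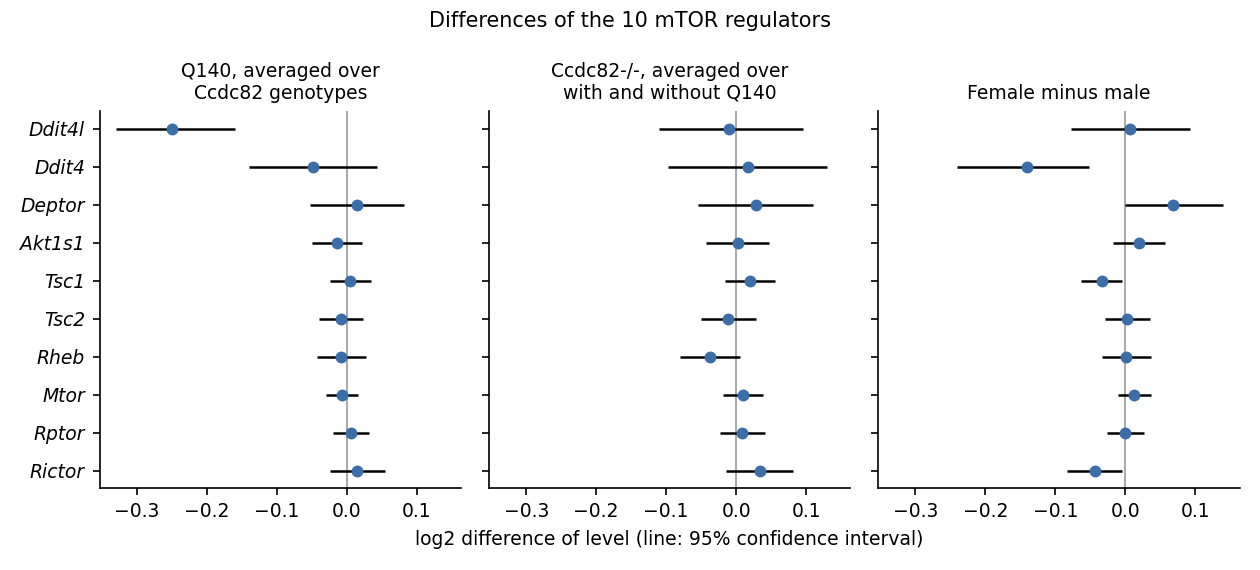
Log2 difference of the level (horizontal axis) of each of the 10 genes (rows) in 3 contrasts, with points for estimates and lines for 95% confidence intervals. Ddit4l stands at -0.25 in the averaged Q140 contrast, which was used to choose it, Ddit4 at -0.14 in females against males, and the intervals of the Ccdc82-/- contrast all include 0.

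Loss of Ccdc82 changed none of the 9 genes other than Ddit4l past the test. Over the 6 contrasts of Ccdc82+/- or Ccdc82-/- against their controls, edgeR called 0 of these 9. It called 0.00522% of all genes in each contrast, which is 1 gene. DESeq2 also called 0 of the 9. With edgeR, Rictor alone had an unadjusted p under 0.05, in Ccdc82+/- with Q140 (log2 difference 0.07, unadjusted p = 0.0413, adjusted p = 0.921 in edgeR) and in the average over mice with and without Q140 (0.05, unadjusted p = 0.0282, adjusted p = 0.905 in edgeR).

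Ddit4l averaged 47.1 ± 5.49 CPM in WT, 45.2 ± 5.16 in Ccdc82+/- and 44.8 ± 3.54 in Ccdc82-/- (SD, n = 8 each), differences smaller than the SD within groups. Its log2 difference was -0.06 (interval -0.20 to 0.09) in Ccdc82+/- and -0.07 (interval -0.22 to 0.07) in Ccdc82-/-. Among Q140 mice it averaged 36.8 ± 3.67 CPM (SD, n = 8) with both Ccdc82 copies, 40.4 ± 4.10 CPM (n = 8) in the cross to Ccdc82+/- and 38.2 ± 3.43 CPM (n = 7) in the cross to Ccdc82-/-. The log2 difference from Q140 was 0.13 (interval -0.01 to 0.28) with Ccdc82+/- and 0.05 (interval -0.10 to 0.20) with Ccdc82-/-. The WT and Q140 mice are 1 side of these differences, and their values entered the choice of Ddit4l. The differences are therefore a description without a test.

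By genotype, the means of the other members lay close together. Ddit4 averaged from 15.5 ± 1.77 FPKM (SD, n = 7, Q140 x Ccdc82-/-) to 16.5 ± 2.31 FPKM (n = 8, Ccdc82-/-), and Deptor from 5.58 ± 0.506 FPKM (WT) to 5.94 ± 0.481 FPKM (Ccdc82+/-). Akt1s1 averaged from 14.8 ± 0.359 FPKM (Q140) to 15.1 ± 0.665 FPKM (WT), Tsc1 from 9.33 ± 0.342 FPKM (WT) to 9.57 ± 0.385 FPKM (Q140 x Ccdc82+/-) and Tsc2 from 21 ± 1.28 FPKM (Ccdc82-/-) to 21.3 ± 0.469 FPKM (Ccdc82+/-). Rheb averaged from 10.6 ± 0.272 FPKM (Ccdc82-/-) to 11.0 ± 0.629 FPKM (WT), Mtor from 14.5 ± 0.291 FPKM (Q140 x Ccdc82+/-) to 14.8 ± 0.401 FPKM (Q140) and Rptor from 7.67 ± 0.285 FPKM (WT) to 7.84 ± 0.241 FPKM (Q140). Rictor had its lowest mean in Q140 mice (7.71 ± 0.327 FPKM) and its highest in Q140 x Ccdc82+/- mice (8.12 ± 0.460 FPKM). For each of these 9 genes the lowest and highest means differed by less than the larger of the 2 SDs.

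The Q140 effect on the other 9 genes was not shown to depend on Ccdc82. For Ddit4l the values of WT and Q140 mice entered its choice, so its dependence on Ccdc82 is given as a description. In Ddit4l the Q140 effect on Ccdc82+/- minus that on WT was 0.19 (SE 0.102, interval -0.01 to 0.40), and on Ccdc82-/- minus WT 0.13 (SE 0.104, interval -0.08 to 0.34). These intervals leave room for no difference and for one larger than the averaged Q140 value itself. In the interactions edgeR and DESeq2 called 0 of the other 9 members, and edgeR 0% of all genes, although 674 and 567 of the 19174 genes had an unadjusted p under 0.05. Of the 9, Mtor did so with Ccdc82+/- (log2 difference -0.06, unadjusted p = 0.0430, adjusted p = 1 in edgeR) and none with Ccdc82-/-.

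Ddit4, in contrast, was lower in females. Over all genotypes it ranged from 21.8 to 30.6 CPM (median 25.6) in 23 females and from 23.2 to 34.8 CPM (median 28.4) in 24 males. The sexes overlapped, with 5 females below the lowest male and 17 below the male median. The mean was lower in females in 6 of 6 genotypes, from 24.2 against 29.6 CPM in WT to 27.4 against 28 CPM in Ccdc82+/-. The log2 difference was -0.14 (SE 0.0457, interval -0.24 to -0.05), or -9.54%, with an adjusted p of 0.0349 in edgeR. This was 1 of 10 members called, where 10.5% of all genes were called between the sexes, 5.27% higher and 5.26% lower in females. The count is close to that share, so it says nothing particular to the members.

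The call of Ddit4 between sexes lay near the threshold. Each number in the library name held mice of 1 sex only, so the sex contrast also compares sets of numbers. Mice of different genotypes with the same number had a median r of 0.0895 between their deviations, with 18 of 38 pairs over 0.1. With a random effect of this number the adjusted p was 0.101 in limma, so the call did not hold with this grouping in the model. In edgeR it was 0.0717 without the filter on low counts. It also rose above 0.05, to at most 0.0569, when any 1 of 9 single libraries was left out. Those libraries were WT female 1, WT female 4, WT male 2, WT male 4, Ccdc82-/- male 1, Q140 female 3, Q140 x Ccdc82+/- female 2, and females 1 and 3 of Q140 x Ccdc82-/-. The difference stayed between -0.16 and -0.13 in all 47 of these fits.

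**Figure D3:**
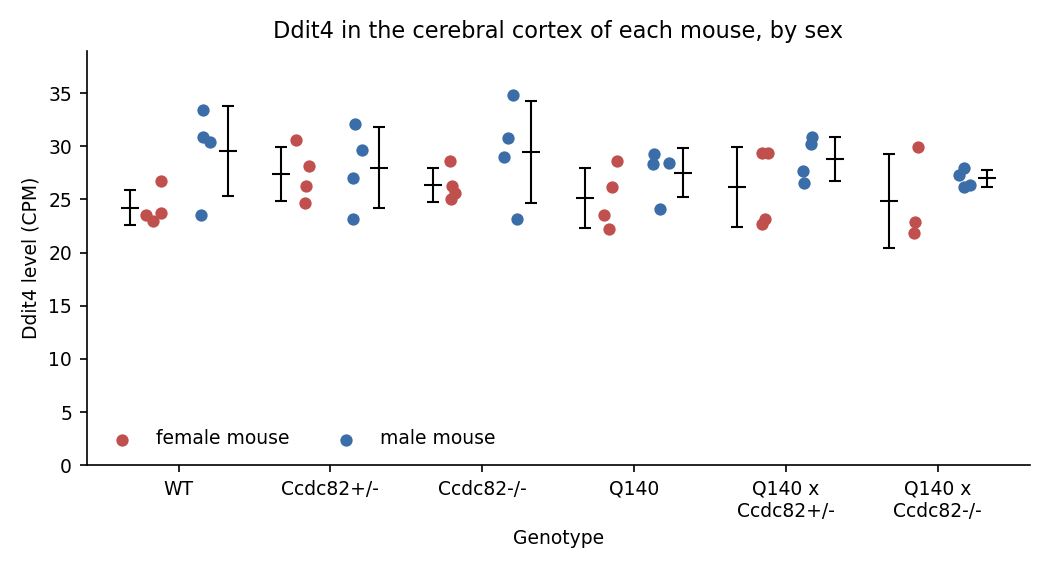
Ddit4 level in CPM (vertical axis, from 0) in each mouse, by genotype (horizontal axis) and sex (red, female; blue, male), with the mean (bar) and 1 SD (error bar) beside the points of each sex. The female mean lies below the male mean in 6 of 6 genotypes, by 24.2 against 29.6 CPM in WT and 27.4 against 28 CPM in Ccdc82+/-.

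The other members showed smaller sex differences. Tsc1 (log2 difference -0.03, adjusted p = 0.124 in edgeR), Rictor (-0.04, adjusted p = 0.134) and Deptor (0.07, adjusted p = 0.190) did not pass after adjustment. Tsc1 averaged less in females in 6 of 6 genotypes, and limma on log2 FPKM values called it, with an adjusted p of 0.0473 at a pseudocount of 0.1. Ddit4l differed by 0.01 (interval -0.08 to 0.09, adjusted p = 0.937 in edgeR). A difference of the averaged Q140 effect between the sexes was called in 0 of the 9 members other than Ddit4l. It was called in 0% of all genes, with 769 genes at an unadjusted p under 0.05.

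Of 97 other pathway genes tested, 1 was called in the averaged Q140 contrast, a share close to the 0.876% of all genes, so the count says nothing particular to the pathway. Camkk2, a kinase upstream of AMPK that responds to calcium, fell from 43.8 to 40.9 FPKM on average, with a log2 difference of -0.10 (SE 0.0136, adjusted p = 2.68e-06 in edgeR). That is 1 of 10 genes of the energy branch, lower, and 0 higher. No gene was called on the lists of other complex subunits (0 of 7; Mlst8 -0.02, Mapkap1 0.00), other TSC and Rheb genes (0 of 2; Tbc1d7 -0.03, Rhebl1 0.01), the growth factor branch (0 of 16; Akt1 0.01) or the amino acid branch (0 of 27; Rraga 0.00, Rragd -0.03). The targets of the mTOR complexes (0 of 23; Eef2 0.00, Eif4b 0.00) and the partners and turnover genes of Ddit4 (0 of 12; Ywhae -0.01, Ywhag -0.01) gave none either. The median log2 difference of the 97 genes was 0.00, as it was for all genes tested. The unadjusted p was under 0.05 in 12 of the 97, against 1760 of all 19174 genes, and 2 were called by DESeq2, Camkk2 and Phlpp1, an Akt phosphatase gene.

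Stress genes known to move with Ddit4 in other settings did not pass in that contrast either. Of 58 tested, edgeR called 0, where 0.876% of all genes were called, so that a count of 0 is near the background. The unadjusted p was under 0.05 in 8 of the 58, against 1760 of 19174 genes, and by DESeq2 Psat1 of the Atf4 targets was called. The lists were glucocorticoid-induced genes (0 of 16; Klf9 0.01, Mt2 -0.01), hypoxia-induced genes (0 of 11; Ldha -0.01, Bnip3 0.02), Atf4 targets (0 of 13; Atf4 -0.04, Asns -0.01) and activity-regulated genes (0 of 18; Arc -0.22, Egr1 -0.06). The activity-regulated list had the lowest median of these, -0.16, and varied widely between mice: its sum ran from 433 to 1248 FPKM without Q140 and from 260.1 to 866 FPKM with it.

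Between the sexes, 12 pathway and stress genes were higher and 10 lower in females, of 153 tested, where 5.27% of all genes were higher and 5.26% lower. Sgk1, a kinase that the Rictor complex activates and that glucocorticoids induce, was lower like Ddit4 (log2 difference -0.26, SE 0.0685, adjusted p = 0.0122 in edgeR). The other glucocorticoid-induced genes called went the other way: Zbtb16 (0.21) and the receptor gene Nr3c1 (0.06) were higher in females. Of the hypoxia-induced genes, Vegfa (0.13), Ldha (0.06) and Egln3 (0.13) were higher, 3 of 11, and of the activity-regulated genes Fos (-0.40), Junb (-0.35) and Btg2 (-0.59) were lower, 3 of 18. Nupr1 (0.15), an Atf4 target, was higher.

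Among pathway genes, the growth factor branch gave Pdpk1 (0.05), Akt2 (0.07) and Phlpp1 (0.04) higher in females. The AMPK subunit gene Prkab1 (-0.17) and Strada (-0.10), a partner of the AMPK kinase Stk11, were lower. Of the amino acid branch, Mios (-0.08) was lower and Sesn3 (0.06) higher. Of the targets, Eef2k (-0.12), the kinase that inhibits translation elongation, and Grb10 (-0.09) were lower with Sgk1, and Rb1cc1 (0.04) was higher. Ywhab (0.03), a 14-3-3 gene, was higher. Markers of several cell types differed in the same contrast, in which 10.5% of all genes were called. Of the interneuron markers, Gad1, Gad2, Adarb2 and Calb2 were lower and Cck higher in females, 5 of 12. Higher in females were the astrocyte genes Kcnj10 and S100b (2 of 12), the endothelial genes Cldn5 and Flt1 (2 of 12), the oligodendrocyte genes Ermn and Ugt8a (2 of 12), the precursor gene Gpr17 (1 of 8) and the upper layer genes Calb1 and Enpp2 (2 of 10). The part of these markers in the sex differences was not tested.

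The members also varied between mice of the same genotype and sex. For each pair, the residuals of log2 CPM after removal of the 12 genotype-by-sex means were correlated over the 47 mice. Of 45 pairs, 6 passed at an adjusted p under 0.05 in a two-sided permutation test with 100000 resamples, 3 positive and 3 negative. The test takes the 47 residuals as free although 35 degrees of freedom remain, and with permutation within genotype and sex 3 of the 6 passed. By Spearman's rho 1 of the 45 pairs passed, Rheb with Rictor.

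Mtor and Rptor, whose products form 1 complex, had the highest Pearson r over all mice (Pearson r = 0.55, permutation p = 1e-04, adjusted p = 0.0045; Spearman rho = 0.40, adjusted permutation p = 0.096). It was 0.46 without the 2 mice farthest from the median of Mtor, and 0.50 and 0.61 in mice without and with Q140. Rheb and Rictor went in opposite directions (r = -0.46, adjusted permutation p = 0.0247; rho = -0.57, adjusted permutation p = 0.00225), with -0.56 without the farthest 2 mice. Deptor and Mtor were high in the same mice (r = 0.43, adjusted permutation p = 0.0247; rho = 0.37, adjusted permutation p = 0.0965), with 0.40 without the farthest 2. These 3 pairs also passed with permutation within genotype and sex, at adjusted permutation p of 0.0429, 0.0378 and 0.0429. With plate column and library-name number also removed, their r was 0.51, -0.59 and 0.12, on 13 degrees of freedom.

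Ddit4l was related to 2 members. It was lower where Deptor was higher (r = -0.44, adjusted permutation p = 0.0247; rho = -0.40, adjusted permutation p = 0.096), with r = -0.40 without the farthest 2 mice, -0.63 in mice without Q140, -0.26 with it, and -0.49 with plate column and library-name number removed. It was higher where Rictor was higher (r = 0.40, adjusted permutation p = 0.0411; rho = 0.38, adjusted permutation p = 0.0965), but that sign turned to -0.51 with plate column and library-name number removed. Ddit4 was lower where Tsc2 was higher (r = -0.43, adjusted permutation p = 0.0247; rho = -0.28, adjusted permutation p = 0.216), with -0.35 without the farthest 2 mice and -0.17 with plate and library number removed. With permutation within genotype and sex the adjusted permutation p of these 3 pairs was 0.127, 0.088 and 0.163. Ddit4l and Ddit4 themselves had r = -0.11 (adjusted permutation p = 0.791; rho = -0.05).

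**Figure D4:**
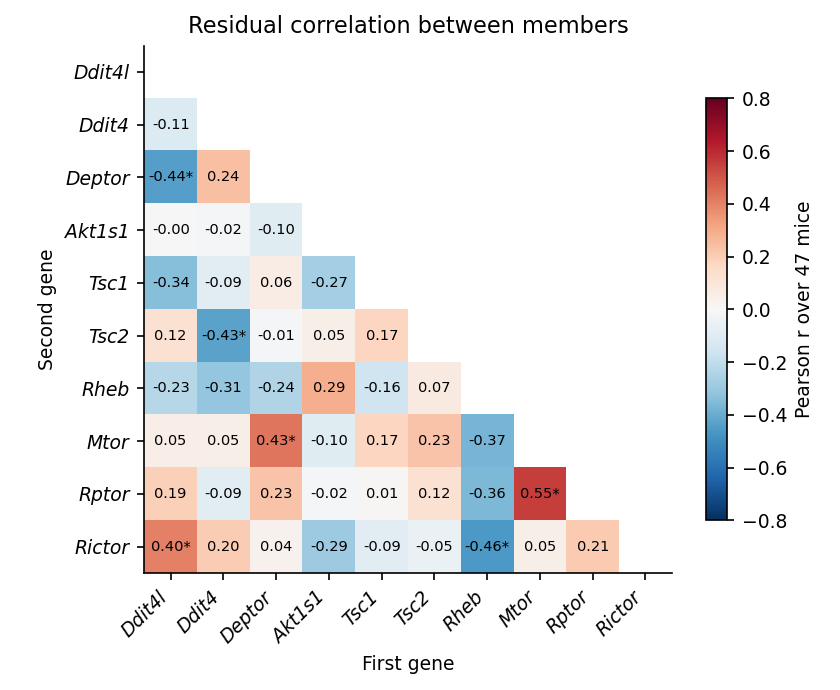
Pearson r over 47 mice between the residual log2 CPM of each pair of the 10 genes, after removal of genotype-by-sex means (red, positive; blue, negative; an asterisk marks an adjusted permutation p under 0.05). Mtor with Rptor has the highest value, 0.55, and Rheb with Rictor the lowest, -0.46.

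The genes most like Ddit4l in these residuals were found among 15149 genes of at least 1 CPM, as a description with no test; all values share the libraries and their normalization. The highest r belonged to Nr2f1, a nuclear receptor that patterns cortical areas (r = 0.70), followed by Pus10 (0.68), Sestd1 (0.62), Pcdh20 (0.62), Flrt2 (0.62) and Slitrk3 (0.62). The lowest belonged to the growth arrest and DNA damage gene Gadd45a (-0.76), Foxo6 (-0.74), Vipr1 (-0.66) and the retinoic acid receptor gene Rara (-0.66). Nr2f1 kept 0.68 without the farthest 2 mice and 0.80 with plate column and library-name number removed, and Gadd45a kept -0.71 and -0.57. Under that removal the other genes with high r ran from 0.43 (Pus10) to 0.66 (Pcdh20). The others with low r ran from -0.62 (Foxo6) to -0.43 (Vipr1). None of these 10 genes was called in the averaged Q140 contrast. There 0.876% of all genes were called, so the count says nothing particular to them. Nr2f1 had a log2 difference of -0.03 (adjusted p = 0.866 in edgeR) and Gadd45a of -0.01 (adjusted p = 0.995).

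The genes most like Ddit4 were others. Ttll7 (r = 0.71), Sgk1 (0.69), Synm (0.64), Sgtb (0.63) and Cntn1 (0.63) were among those with the highest r, and Pitpnm3 (-0.72), Tdg (-0.72), Gm3764 (-0.71) and Celf5 (-0.71) the lowest. Sgk1, lower in females like Ddit4, had r = 0.78 in mice without Q140, 0.54 with it and 0.65 with plate column and library-name number removed. The r of Sgtb was -0.13 under the same removal, that of Ttll7 0.36, Synm 0.51 and Cntn1 0.35. Of the genes with the lowest r, Pitpnm3 stayed at -0.72, and Tdg was at -0.33, Gm3764 at -0.35 and Celf5 at -0.55.

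**Figure D5:**
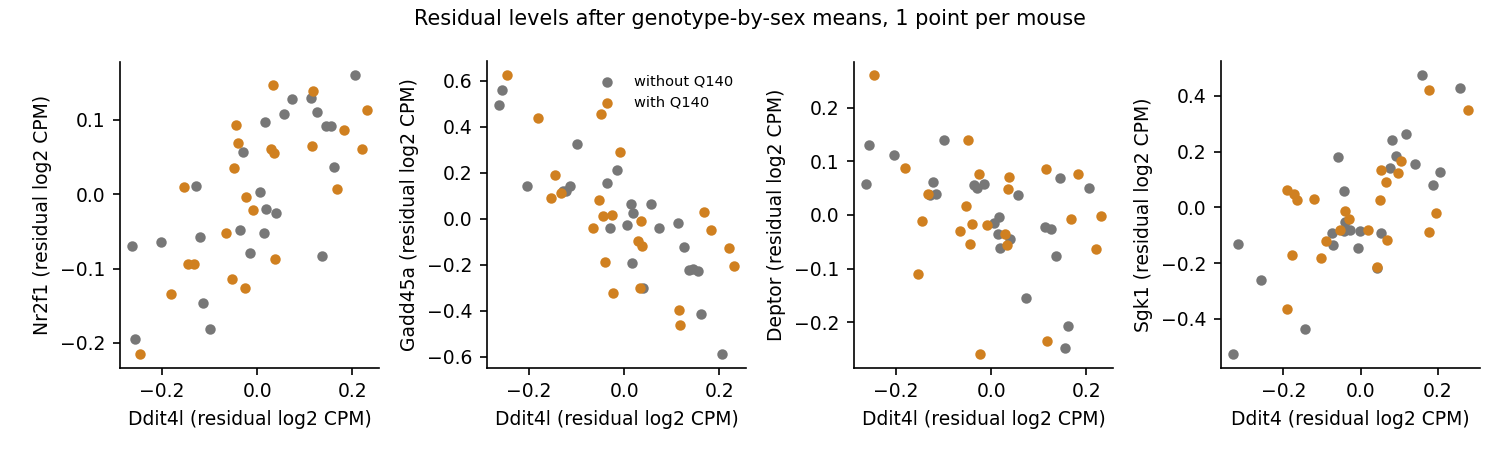
Residual log2 CPM after genotype-by-sex means, 1 point per mouse (grey, without Q140; orange, with Q140), of Ddit4l against Nr2f1, Gadd45a and Deptor and of Ddit4 against Sgk1. Over all mice, Nr2f1 rises with Ddit4l (r = 0.70), Gadd45a (-0.76) and Deptor (-0.44) fall with it, and Sgk1 rises with Ddit4 (0.69). The signs are the same in mice with and without Q140, but Deptor has r = -0.63 without Q140 and -0.26 with it.

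Each member was also set against 20 cell type and stress lists, the library total and the mitochondrially encoded share of counts, giving 220 relations. Of these, 35 passed at an adjusted permutation p under 0.05. As for the member pairs, the test takes the residuals as free although the genotype-by-sex means were removed. Permutation within genotype and sex was not done for the 220 relations, so the 35 may include relations that would not pass it. Ddit4l was lower where hypoxia-induced genes were higher (r = -0.49, adjusted permutation p = 0.0110; rho = -0.45), with -0.40 without the farthest 2 mice and -0.46 with plate column and library-name number removed. Rheb was higher there (r = 0.49, adjusted permutation p = 0.0110; rho = 0.58). Of the cell type lists, deep layer neurons (r = -0.37, adjusted permutation p = 0.0601), upper layer neurons (0.30, adjusted permutation p = 0.140) and oligodendrocytes (-0.26, adjusted permutation p = 0.227) had the largest r with Ddit4l, and none passed. This order depends on the terms removed. With plate column and library-name number removed, which leaves 13 degrees of freedom, the values were -0.50, 0.57 and -0.28. Excitatory neuron genes went from 0.06 to 0.82. The labels do not say what the library-name number or the plate position stands for.

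Ddit4 was higher where oligodendrocyte genes were higher (r = 0.46, adjusted permutation p = 0.0163; rho = 0.44), with 0.33 without the farthest 2 mice and 0.29 with plate and library number removed. Its relations with medium spiny neuron genes (r = 0.43, adjusted permutation p = 0.0268; rho = 0.40) and excitatory neuron genes (-0.42, adjusted permutation p = 0.0289; rho = -0.31) were -0.06 and -0.47 under that removal. Deptor, itself a deep layer marker, followed the other deep layer genes (0.47, adjusted permutation p = 0.0122; rho = 0.41) and went against the upper layer genes (-0.65, adjusted permutation p = 0.0011; rho = -0.49). Mtor was lower where astrocyte genes were higher (-0.65, adjusted permutation p = 0.0011; rho = -0.61). Neither library total nor mitochondrial share passed with Ddit4l (r = 0.05 and -0.02) or Ddit4 (0.02 and 0.16), and Tsc1 was lower where the mitochondrial share was higher (-0.48, adjusted permutation p = 0.0110; rho = -0.51).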

How the data were processed

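RNA of 47 cortices was extracted with a Qiagen RNeasy kit and made into stranded TruSeq libraries, per the labels' protocols. The authors deposited raw counts per gene and FPKM values. Per the submitters' processing notes, HTSeq 0.12.3, SAMtools 1.10 and STAR 2.7.5c were used, with the builds mm10 and GRCm38. No annotation release is given. The FPKM follow from counts, library total and 1 length per gene.

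Counts were filtered with filterByExpr (minimum count 10, total 15), scaled by TMM and tested with the robust quasi-likelihood method of edgeR 4.0.16, in 1 model of all 47 libraries with 6 genotype means and sex. Genes were called at a Benjamini-Hochberg adjusted p under 0.05 over all 19174 tested. DESeq2 1.42.0 and limma 3.58.1 on log2(FPKM + 0.1) were alternatives. Tests on simulated data called 26 of 67 genes made to differ by 0.1 in the averaged Q140 contrast, 46 of 67 by 0.25 and 60 of 66 by 0.5 (log2), and 4 of 18974 unchanged ones. Correlations used log2 CPM (prior count 2), SciPy 1.17.1 and 100000 permutations. Intervals are 95%.

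The 10 members and all gene lists were chosen with earlier results of these data known. The 10 members were named in every contrast, with list genes that were called, or the 2 of highest mean FPKM where none was called on a list in the averaged Q140 contrast, and the 6 highest and 4 lowest genes by r. Other cell type markers were used only beside these results. Castor1 and Castor2 were not used. Names and sequences were matched by symbol. Some genes that these rules name are not reported here.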

Additional observations from a re-analysis of the deposited data

Results flagged for a closer look

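In 60 sets of 1 gene in 1 genotype, 5 held a mouse set apart from its group by a gap above Dixon's 95% critical value (0.526 for 8 mice), where chance gives about 3. Deptor had 3 of them, each a low mouse: WT male 1 at 40.2 CPM with the nearest at 47.7 (gap over range 0.545), Ccdc82+/- female 4 at 43.9 with the nearest at 51.0 (0.555), and Q140 x Ccdc82+/- male 4 at 40.7 with the nearest at 50.4 CPM (0.594). Akt1s1 was high in Ccdc82-/- male 4, at 50.0 CPM with the nearest at 46.7 (0.557). Tsc2 was low in Ccdc82+/- female 1, at 123 CPM with the nearest at 128 (0.669).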

How the results depend on the processing

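The averaged Q140 difference of Ddit4l lay between -0.28 and -0.22 over 12 other fits, normalizations or single-sex subsets and between -0.26 and -0.24 with each of the 47 libraries left out. None of the other 9 members was called with Q140, in the interactions or with Ccdc82 loss, under any alternative run. Between the sexes, 0 members were called without the filter and 0 with library-name number as a random effect, and 2 (Ddit4 and Tsc1) with limma on log2(FPKM + 0.1) and 2 on log2(FPKM + 1). With 1 library left out the number was 0 to 2, with 2 (Ddit4 and Rictor) only without Ccdc82-/- female 1. The sex difference of Ddit4 was -0.14 (adjusted p = 0.0717, edgeR) without the filter, -0.14 (adjusted p = 0.101, limma) with the random effect, and -0.16 to -0.13 with 1 library left out. Pathway and stress genes called in the averaged Q140 contrast numbered 3 by DESeq2, 3 with plate column, 2 with library-name number, 2 and 2 with limma on log2(FPKM + 0.1) and log2(FPKM + 1), 0 in males alone, where Camkk2 was at -0.09 (adjusted p = 0.133, edgeR), and 1 to 2 with 1 library left out. Camkk2 was joined by Phlpp1 without WT female 1, WT female 3, WT male 4, Ccdc82-/- female 4, Q140 female 1 or 4, or Q140 x Ccdc82-/- male 1, by Psat1 without Q140 female 2 or Q140 x Ccdc82+/- female 3, and by Eif4ebp3 without Q140 x Ccdc82-/- female 1. Correlated member pairs numbered 14 with plate column and library-name number removed, 2 in mice without Q140, 3 in mice with it, and 3 with permutation within genotype and sex, an alternative chosen after seeing the data, as was leaving out single libraries. The residuals behind the 14 had 13 degrees of freedom but were tested as 47 free values. That count therefore cannot be set beside the 6 pairs of the main test. The causes were not tested.

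With the replicate block (sex and number as a factor), Ddit4l stayed at -0.25 in the averaged Q140 contrast and no call of a member changed. The numbers did not pair the mice: same-numbered mice of a sex had a median r of 0.0315 between their deviations, with 31 of 115 pairs over 0.1, and 13 of 47 mice correlated best with their own number. The sex contrast has no value without a sex term or in that block. Of 1630 single member values under alternatives, 1616 kept their call and moved by under 1 SD between mice. The 10 that moved further were Rictor and Deptor in 1 sex alone.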
